A study of Homo sapiens with 4 samples.

Results

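The epidermal differentiation complex is the gene cluster on the long arm of human chromosome 1 that holds the S100A, SPRR, LCE and FLG families. The members described here were the protein-coding genes whose transcription start site (TSS, taken as the 5′ end of the gene in GENCODE) lay between positions 151900000 and 153700000 of chromosome 1 (hg19). There were 67 such genes of 20098 protein-coding genes in all. Chromatin accessibility had been measured by ATAC-seq, where Tn5 transposase cuts open DNA and leaves adapters there, and places where cuts pile up are called as peaks. The libraries came from MCF10A, an immortalized, nontransformed human mammary epithelial line, labelled Parental, and from the same line carrying oncogenic HRas G12V, labelled H-RAS Gv12 and called G12V here, with 2 replicates each. HRas G12V had been delivered by lentivirus, a separate GFP vector had been added to follow the transduction, and hygromycin had selected the carriers. The MCF10A libraries are labelled only as Parental, so the oncogene, the virus and the selection cannot be told apart, and the sources used here do not say whether G12V was a clone. Both cell types had been grown with EGF, insulin, hydrocortisone, cholera toxin and horse serum. The comparison asked which accessible sites of the cluster differed between cells with and without the oncogene.

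When keratinocytes mature, they replace their plasma membrane by the cornified envelope, a shell of proteins that transglutaminases cross-link. Involucrin (IVL), loricrin (LORICRIN), the small proline-rich proteins (SPRR) and the late cornified envelope proteins (LCE) are its building blocks, and filaggrin (FLG) bundles keratin beneath it. The S100 proteins are small calcium-binding proteins, several of which are made by basal or inflamed epithelium rather than by the cornified layer. MCF10A cells have many features of basal mammary epithelium, a tissue that does not cornify.

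In replicate order, the deposited MCF10A lists were 12902 and 34484 peaks long and the G12V lists 14057 and 46698. The replicate 2 lists were thus the long ones in both cell types, and read depth was unknown. Each peak had a MACS score, 10 times the negative log10 of its p-value. Since scores grow with depth, each is also given as a percentile of its own list, where 100 is the best peak. A peak just under the caller's threshold is missing from a list, so a missing peak does not show closed chromatin. In bulk cells, a site open in fewer cells and a site less open in each cell cannot be told apart.

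Merging overlapping peaks across all 4 lists gave 60886 regions genome-wide and 81 in the interval. A region was called gained when both G12V lists and neither MCF10A list held a peak there, lost for the opposite pattern, and shared when all 4 lists held one. In the interval 5 regions were gained (3.2% of all regions were), 1 was lost (2.14% of all) and 2 were shared (8.36% of all). The reference sequence (GRCh37, plus strand) of the 150 bp window at the midpoint of the best peak is shown for these regions because they are the ones whose pattern recurred in both replicates. The shared region in S100A16 is left out, since its window overlapped an untranslated part of the gene. Capitals mark matches on either strand to the AP-1 motif TGACTCA, to the TEAD motif GGAATG or to the CTCF motif.
Gained, intron of a long non-coding RNA gene, 18250 bp from the S100A11 TSS, chr1:152001643-152001792: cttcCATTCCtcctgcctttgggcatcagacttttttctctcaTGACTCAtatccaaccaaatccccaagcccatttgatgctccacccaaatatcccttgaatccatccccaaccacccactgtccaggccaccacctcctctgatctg
Gained, intron of FLG-AS1, 26285 bp from the RPTN TSS, chr1:152158220-152158369: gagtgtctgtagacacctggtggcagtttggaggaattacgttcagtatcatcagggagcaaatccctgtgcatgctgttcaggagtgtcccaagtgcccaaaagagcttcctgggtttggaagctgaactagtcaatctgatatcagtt
Gained, intron of FLG-AS1, 26455 bp from the CRNN TSS, chr1:152413477-152413626: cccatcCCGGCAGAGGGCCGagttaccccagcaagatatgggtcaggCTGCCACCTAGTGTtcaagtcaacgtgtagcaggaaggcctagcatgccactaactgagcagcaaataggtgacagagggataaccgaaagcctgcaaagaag
Gained, intergenic, 11977 bp from the KPRP TSS, chr1:152718043-152718192: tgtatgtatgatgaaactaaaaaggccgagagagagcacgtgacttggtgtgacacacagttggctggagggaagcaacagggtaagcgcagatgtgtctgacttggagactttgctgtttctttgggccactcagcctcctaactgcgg
Gained, intergenic, 6365 bp from the SMCP TSS, chr1:152843992-152844141: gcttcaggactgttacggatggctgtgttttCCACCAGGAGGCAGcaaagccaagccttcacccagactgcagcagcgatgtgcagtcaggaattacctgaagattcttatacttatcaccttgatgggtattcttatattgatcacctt
Lost, intron of FLG-AS1, 32028 bp from the RPTN TSS, chr1:152163954-152164103: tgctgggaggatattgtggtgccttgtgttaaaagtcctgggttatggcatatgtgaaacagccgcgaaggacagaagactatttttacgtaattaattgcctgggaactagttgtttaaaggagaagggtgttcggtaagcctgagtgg
Shared, promoter of ILF2, chr1:153643571-153643720: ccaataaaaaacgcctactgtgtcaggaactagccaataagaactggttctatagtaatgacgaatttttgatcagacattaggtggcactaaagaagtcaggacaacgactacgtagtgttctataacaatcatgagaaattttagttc

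More of the accessible sites of the complex were listed in G12V than in MCF10A within each replicate number. The interval held 9 peaks in MCF10A replicate 1, 40 in MCF10A replicate 2, 19 in G12V replicate 1 and 70 in G12V replicate 2. G12V thus had 2.11 times the peaks of MCF10A in replicate 1 and 1.75 times in replicate 2, but the long MCF10A list held more than the short G12V list. The mean was 44.5 ± 36.1 for G12V against 24.5 ± 21.9 for MCF10A (SD, n = 2 each), a difference of 20 peaks that is smaller than either SD. The two-sided exact permutation test gave p = 0.667. The smallest p that 2 libraries against 2 allow is 0.333 in such exact permutation tests, so none of them can pass 0.05, and they measure only the spread between these libraries. Without G12V replicate 2 the difference turned to -5.5 peaks.

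Relative to the length of its list, the interval took a larger part in both G12V libraries than in both MCF10A libraries. In MCF10A its share of the peaks was 0.0698% (95% Wilson interval 0.0367 to 0.133%) for replicate 1 and 0.116% (0.0852 to 0.158%) for replicate 2. In G12V it was 0.135% (0.0866 to 0.211%) for replicate 1 and 0.15% (0.119 to 0.189%) for replicate 2. The groups did not overlap, although the counting intervals of single libraries did, and such intervals cover counting error only. The mean share was 0.143% ± 0.0104 for G12V against 0.093% ± 0.0327 for MCF10A (SD, n = 2 each), with p = 0.333 by the two-sided exact permutation test. Of 1608 windows of 1800000 bp tiling the genome, 18.5% had a share that was higher in both G12V libraries than in both MCF10A libraries. With the 12888 best-scoring peaks of every list, the interval held 9 and 11 peaks in the MCF10A libraries and 17 and 17 in the G12V libraries, in replicate order. At these equal sizes 17.7% of windows had more peaks in both G12V libraries.

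**Figure D1:**
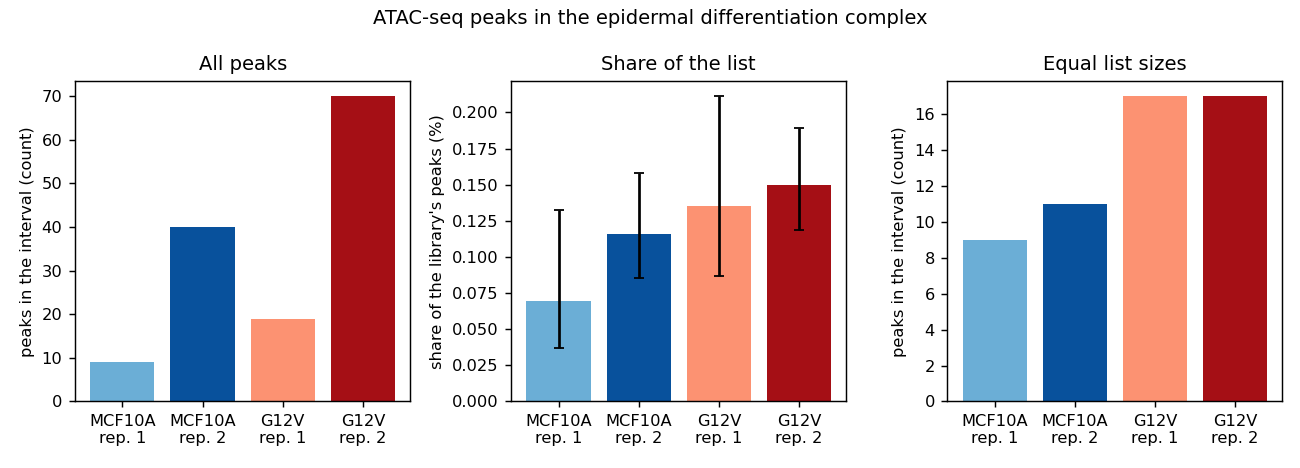
Peaks in the epidermal differentiation complex in each library, as a count of all peaks (left), as a share of the library's peaks in percent with 95% Wilson intervals (middle) and as a count among an equal number of best-scoring peaks (right). Counts follow list length at 9, 40, 19 and 70, while at equal list sizes the G12V libraries have 17 peaks each and the MCF10A libraries 9 and 11.

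The chromatin around the complex did not show the same order. In the 5 Mb on each side together, the share of peaks was 0.442% and 0.534% in MCF10A replicates 1 and 2, and 0.527% and 0.452% in G12V replicates 1 and 2, so the groups overlapped. The group means there were 0.488% ± 0.0648 for MCF10A and 0.49% ± 0.053 for G12V (SD, n = 2 each, p = 1.0 by the exact permutation test). Per flanking peak, the interval held 0.158 and 0.217 peaks in the MCF10A libraries and 0.257 and 0.332 in the G12V libraries. These groups did not overlap (p = 0.333 by the exact permutation test, the smallest possible). The share of other windows with such an order in this ratio was not worked out, so the order does not set the complex apart.

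Most of the accessible sites lay away from promoters, and so did most of the surplus in G12V. A peak was promoter-proximal if it touched the window that begins 1000 bp before and ends 500 bp after a protein-coding TSS. There were 4, 12, 4 and 17 such peaks in MCF10A replicates 1 and 2 and G12V replicates 1 and 2, and 5, 28, 15 and 53 others. The promoter-proximal counts of the short lists were equal, and in replicate 2 G12V had 1.42 times those of MCF10A. The other peaks were 3.0 times as many in G12V replicate 1 as in MCF10A replicate 1 and 1.89 times as many in replicate 2. The promoter-proximal share of the interval's peaks was 44.4% (95% Wilson interval 18.9 to 73.3%) and 30.0% (18.1 to 45.4%) in MCF10A, and 21.1% (8.51 to 43.3%) and 24.3% (15.8 to 35.5%) in G12V. Over all peaks it was 29.4% and 22.5% in the MCF10A lists and 28.8% and 17.3% in the G12V lists. Within the interval the groups did not overlap in this share, and the exact permutation test of the difference of -14.6 percentage points gave p = 0.333. The value of MCF10A replicate 1 rests on 4 of 9 peaks. Over all peaks the share was also lower in G12V within each replicate number. No other windows were compared for this share, so the order does not set the complex apart.

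Among the 81 regions, 5 were gained (6.17%, 95% Wilson interval 2.66 to 13.7%), against 3.2% of all regions. One region was lost (1.23%, 0.218 to 6.67%), against 2.14% of all, and 2 were shared (2.47%, 0.68 to 8.56%), against 8.36%. The background share lay inside each interval, and the counts are too small to set the complex apart. With a peak in either G12V library and none in MCF10A, there were 40 regions (49.4%, against 40.9% of all), and with the opposite pattern 11 (13.6%, against 20.8%). Of the 40, 34 were listed in G12V replicate 2 alone, the longest list (42.0% of the 81, against 34.6% of all regions). In replicate 1, 17 of the 81 regions were in the G12V list only (21.0%, against 13.2% of all regions) and 6 in the MCF10A list only (7.41%, against 11.3%). In replicate 2 the numbers were 41 (50.6%, against 39.2%) and 11 (13.6%, against 18.4%), so the longer G12V lists had more such regions over the whole genome too. At equal list sizes the interval held 29 regions, of which 3 were gained and 0 lost, against 5.24% and 5.19% of all regions at those sizes.

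The most frequent pattern after single-library and replicate 2 regions was a peak in every list except that of MCF10A replicate 1. It was found in 11 of the 81 regions (13.6%), against 6.46% of all regions. The mirror pattern, a peak in every list except that of G12V replicate 1, was found in 3 (3.7%), against 5.22%. These 11 regions included the promoter of S100A11, a site near CRCT1 and sites within a few kilobases of SPRR1B, SPRR2E, S100A2 and S100A6. They are open in MCF10A replicate 2 as well, and so are not sites present only with the oncogene.

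**Figure D2:**
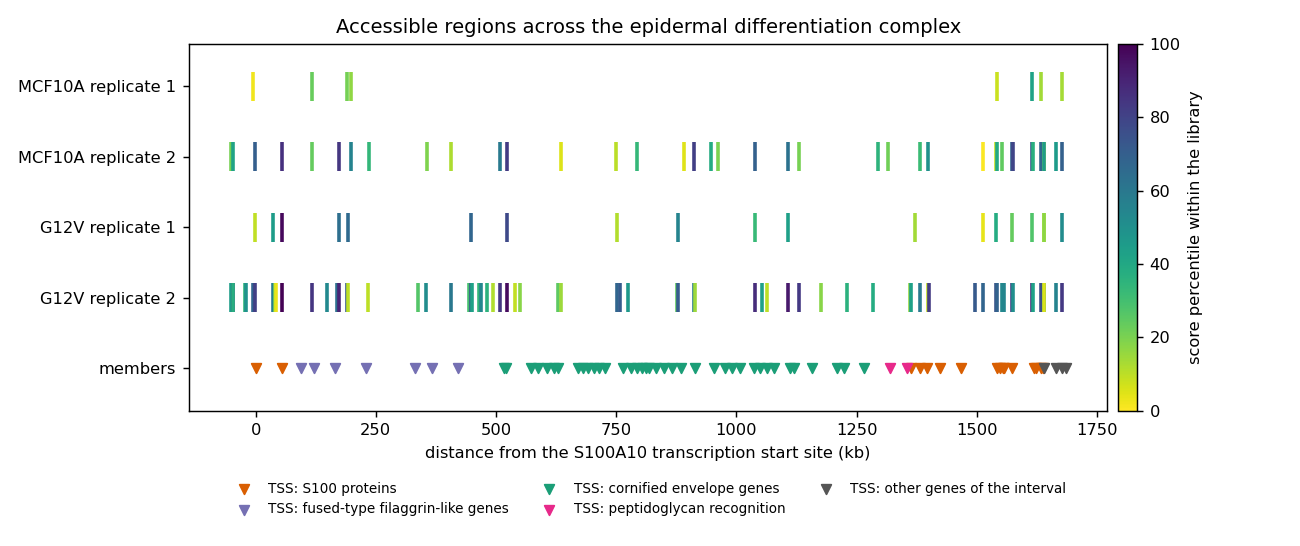
Each tick is an accessible region in one library, placed by the distance of its midpoint from the S100A10 TSS in kb and coloured by the percentile of its score in that library, with the TSS of the 67 members below by family. The regions of MCF10A replicate 1 lie near S100 genes, TCHH, RPTN and ILF2, and those nearest to LCE, SPRR and other envelope genes are listed only in the other 3 libraries.

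The gained regions had middling scores. In replicate order, the region near S100A11 was at percentiles 45.1 and 58.1 of the G12V lists, the region near CRNN at 67.2 and 73.4, and the region near SMCP at 54.9 and 71.4. The region near RPTN was at percentiles 65.9 and 9.84, and the one near KPRP at 11.6 and 67.3, so each of these was near the bottom of one list. The lost region, 32028 bp from the TSS of RPTN (repetin, a filaggrin-like protein), ranked at 16.7 in MCF10A replicate 1 and 55.2 in MCF10A replicate 2. RPTN was thus the nearest gene of both a gained and a lost region, each in an intron of the antisense transcript FLG-AS1. All 5 gained regions and the lost one lay outside promoters. The shared region in an exon of S100A16, 2936 bp from its TSS, was at percentiles 42.5 and 74.1 in MCF10A and 27.7 and 87.6 in G12V, so the cell types overlapped.

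Of the 67 member promoters, 17 had a peak in at least 1 library, against 49.7% of all protein-coding promoters. The number was 3 in MCF10A replicate 1, 11 in MCF10A replicate 2, 3 in G12V replicate 1 and 16 in G12V replicate 2. These are 4.48%, 16.4%, 4.48% and 23.9% of the members, while 20.4%, 41.1%, 22.2% and 43.8% of all promoters had a peak in the same libraries. The mean was 9.5 ± 9.19 for G12V and 7.0 ± 5.66 for MCF10A (SD, n = 2 each), closer than the replicates of either (p = 1.0 by the exact permutation test), and at equal list sizes the difference was -0.5. No member promoter was gained and none was lost, 0 of 67 each, against 0.856% and 0.517% of all promoters. One was shared, that of ILF2, against 13.6%. In replicate 2, 6 members were in the G12V list only (against 7.6% of all genes) and 1 in the MCF10A list only (against 4.92%). In replicate 1 these were 2 and 2 (against 8.33% and 6.55%).

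The S100 genes made up most of the accessible promoters, with 10 of 16 genes, against 49.7% of all protein-coding promoters. Their number was 2 and 7 in the MCF10A libraries and 1 and 10 in the G12V libraries, in replicate order. Over all promoters the shares were 20.4% and 41.1% in MCF10A, and 22.2% and 43.8% in G12V. All 10 were listed in G12V replicate 2, the longest list. The highest-ranking promoter of the complex was that of S100A11, a calcium-binding protein of epithelial cells. It had no peak in MCF10A replicate 1, a score of 158 in MCF10A replicate 2 (percentile 86.2), 189 in G12V replicate 1 (percentile 97.7) and 704.5 in G12V replicate 2 (percentile 99.6). Its percentile was thus higher in both G12V libraries than in the MCF10A library that had it, and it was the best peak of the interval in 3 of the 4 libraries. S100A10, the partner of annexin A2, was at percentile 69.9 in MCF10A replicate 2 and 81.6 in G12V replicate 2. In G12V replicate 1 its only peak lay 1036 bp from the TSS, outside the promoter window, and counted when the start of any transcript was used.

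S100A6 (calcyclin) was at percentiles 8.16 and 39.7 in MCF10A replicates 1 and 2 and 68.8 in G12V replicate 2, with no promoter peak in G12V replicate 1. S100A1 showed the same set of libraries, at 13.9, 67.2 and 75.8. Both promoters were thus listed in both MCF10A libraries and in 1 G12V library. S100A3 and S100A4, which are neighbours, were reached by a single peak of G12V replicate 2 at percentile 54.2. With the start of any transcript, S100A4 also had a peak in MCF10A replicate 2. The remaining S100 genes, S100A5, S100A7, S100A7A, S100A13, S100A14 and S100A16, had no peak in the window in any library. S100A13 and S100A16 had one once the start of any transcript counted, S100A16 in all 4 libraries.

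The genes commonly used to mark the complex differed among themselves. S100A2 had a promoter peak in both replicate 2 lists, at percentile 79.6 in MCF10A and 50.5 in G12V. A second region 754 bp from its TSS, inside the gene, was at 67.8 in MCF10A replicate 2, 23.7 in G12V replicate 1 and 81.3 in G12V replicate 2. S100A2 therefore had 1 site that ranked lower and 1 that ranked higher in G12V replicate 2 than in MCF10A replicate 2. S100A8 and S100A9 encode the subunits of calprotectin, an antimicrobial protein of inflamed epithelium and myeloid cells. The S100A8 promoter was at percentile 49.7 in MCF10A replicate 2 and 9.26 in G12V replicate 2, while that of S100A9 had a peak in G12V replicate 2 alone, at 43.1. In the replicate 2 lists the S100A8 promoter thus ranked lower in G12V. A region 4008 bp from the S100A8 TSS was in G12V replicate 2 alone, at percentile 82.6. The S100A9 promoter was listed in G12V replicate 2 only, and neither S100A8 nor S100A9 had a promoter peak in a replicate 1 library. S100A12, which lies between them, was at 31.9 and 59.7 in the replicate 2 lists of MCF10A and G12V.

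IVL had a weak promoter peak in G12V replicate 2 alone (score 45.9, percentile 14.6). A region 1765 bp from its TSS was stronger and was in both replicate 2 lists, at percentile 81.6 in MCF10A and 59.1 in G12V. Both IVL sites were missing from the replicate 1 lists, whose nearest peaks lay 37061 bp (G12V) and 626820 bp (MCF10A) from the TSS. SPRR1B had no peak in its promoter window in any library. A region at the downstream end of the gene began 1667 bp from the TSS. Only its G12V replicate 2 peak touched the gene, and its other peaks began past the end of the gene. The region had scores of 100 in MCF10A replicate 2, 55.9 in G12V replicate 1 and 195 in G12V replicate 2 (percentiles 69.5, 32.6 and 87.2). Of the 5 marker genes, 0 and 2 had a promoter peak in the MCF10A libraries, and 0 and 4 in the G12V libraries, in replicate order. Over all promoters the shares were 20.4% and 41.1% in MCF10A, and 22.2% and 43.8% in G12V. The 4 were in G12V replicate 2, the longest list. With the start of any transcript the marker counts were 0 and 2, and 1 and 4. S100A2 then had a peak in G12V replicate 1. The label thus rests on the genes' positions rather than on accessible marker promoters.

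**Figure D3:**
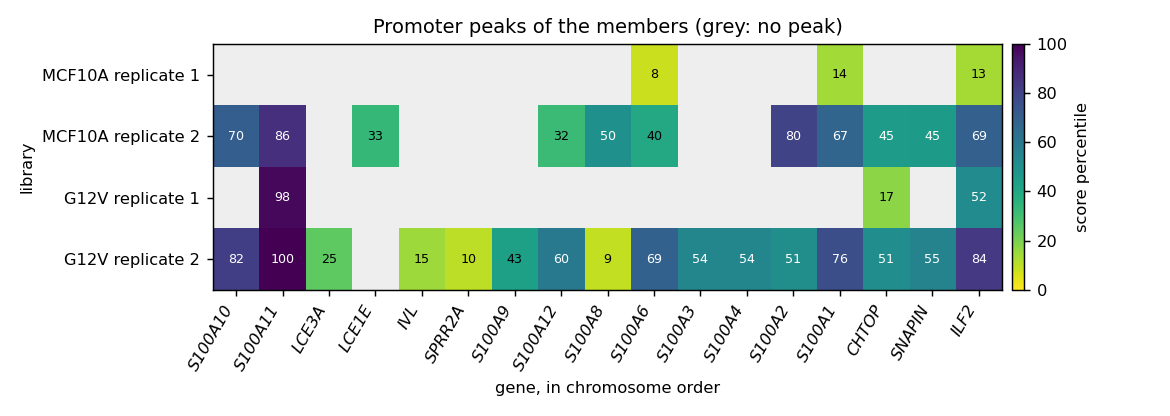
Percentile of the best promoter peak in each library (rows) for the 17 members with at least 1 promoter peak (columns, in chromosome order), with grey where the list has no peak. S100A11 reaches 97.7 and 99.6 in the G12V libraries, and each replicate 1 library has 3 promoters.

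The cornified envelope genes were mostly without accessible promoters in either cell type. Of 38 such genes, 34 had no promoter peak in any library, against 50.3% of all protein-coding genes. Among the 34 were all but 2 of the 19 LCE genes and all but 1 of the 11 SPRR genes. The exceptions were LCE1E in MCF10A replicate 2 (percentile 33.3), and LCE3A, SPRR2A and IVL in G12V replicate 2 (percentiles 24.7, 9.91 and 14.6). Each was listed in a single library. LORICRIN, which encodes the main protein of the mature envelope, had its nearest peak 18225 bp away, in G12V replicate 2. The 7 fused-type, filaggrin-like genes, FLG, FLG2, HRNR, RPTN, TCHH, TCHHL1 and CRNN, had no promoter peak in any library. PGLYRP3 and PGLYRP4, which encode peptidoglycan recognition proteins, had none either.

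Only uniquely placed reads had been kept, so near-identical promoters can lack reads. Of the 51-base words in each promoter window, the share that occurred more than once in the interval was above 10% for 4 members, LCE2B (24.9%), LCE2C (23.8%), S100A7A (17.4%) and S100A7 (13.6%). The median was 0% for the LCE, SPRR, S100 and fused-type genes. Copies outside the interval were not counted, and the part of repeats in the missing peaks of those 4 genes was not tested.

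The other genes of the interval are not part of the differentiation programme. ILF2, a double-stranded RNA-binding protein, had a promoter peak in all libraries, at percentiles 13.3, 69.5, 51.8 and 83.5 in the usual order. CHTOP, an mRNA export factor, had one in MCF10A replicate 2 (45.3), G12V replicate 1 (17.5) and G12V replicate 2 (50.97), and SNAPIN, a SNARE-binding protein, in the 2 replicate 2 lists (45.4 and 55.2). NPR1, a natriuretic peptide receptor, had none. ILF2 ranked higher in G12V than in MCF10A within each replicate number, but its 4 percentiles overlapped between the cell types.

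Envelope and filaggrin-like genes did have accessible sites nearby. Taking the gene with the nearest TSS, 29 regions belonged to cornified envelope genes, of which 4 were promoter-proximal, and 18 to fused-type genes, of which 0 were. Those nearest to envelope genes were listed in 0 and 12 cases in the MCF10A libraries and in 5 and 23 in the G12V libraries, in replicate order. For the fused-type genes the numbers were 3 and 6 in MCF10A, and 3 and 15 in G12V. The 25 regions nearest to S100 genes, 9 of them promoter-proximal, were listed 4 and 13 times in MCF10A, and 8 and 24 times in G12V. In these 3 groups the G12V library had more of them than the MCF10A library of the same number, except for the fused-type genes in replicate 1. A peak in G12V and none in MCF10A was found in 11 of the 25 S100 regions, 17 of the 29 envelope regions and 11 of the 18 fused-type regions, against 40.9% of all regions. The opposite pattern was found in 0, 6 and 3 of them, against 20.8% of all. The 2 regions nearest to PGLYRP3 were in MCF10A replicate 2 alone.

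The strongest of these sites away from promoters were chosen after their values had been seen. A region 2606 bp from the TSS of CRCT1, a cysteine-rich gene at the edge of the LCE cluster, had scores of 140 in MCF10A replicate 2, 88.4 in G12V replicate 1 and 381 in G12V replicate 2 (percentiles 82.8, 77.9 and 96.9). One 5420 bp from the TSS of SPRR2E, in its intron, had 87.5, 60.1 and 271 (percentiles 62.2, 43.4 and 93.2). Another, 8384 bp from RPTN in an exon of FLG-AS1, had 146, 73.0 and 225 (percentiles 84.1, 63.9 and 90.1). These 3 regions had no peak in MCF10A replicate 1, and their percentile was highest in G12V replicate 2. The region in an exon of TCHH, trichohyalin, was at 23.1 and 23.5 in MCF10A and at 84.5 in G12V replicate 2, with no peak in G12V replicate 1.

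Where both long lists held a peak, the G12V peak usually ranked higher. This comparison was chosen after the data had been seen. Of 28 regions in both replicate 2 lists, 23 had a higher percentile in G12V, against 63.1% of the 22104 such regions of the genome, and the median difference was 14.1 percentile points against 4.93. With the 12888 best-scoring peaks of each library, 9 of 9 regions did, against 50.7%. The 5 that ranked lower in G12V included the promoters of S100A2 and S100A8, the region 1765 bp from IVL and a second peak of CHTOP. The fifth lay 36734 bp from THEM4, the nearest gene, whose TSS is outside the interval. Of the 28, 15 of 17 away from promoters and 8 of 11 at promoters ranked higher in G12V. The comparison holds 1 library of each cell type, so it compares those libraries and not the conditions. In replicate 1 only 2 regions were in both lists, of which 1 ranked higher in G12V (55.1% of 5394 such regions of the genome). Of the 2 regions shared by all libraries, 0 had both G12V percentiles above both MCF10A percentiles and 0 had the opposite, against 18.5% and 6.94% of all shared regions.

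**Figure D4:**
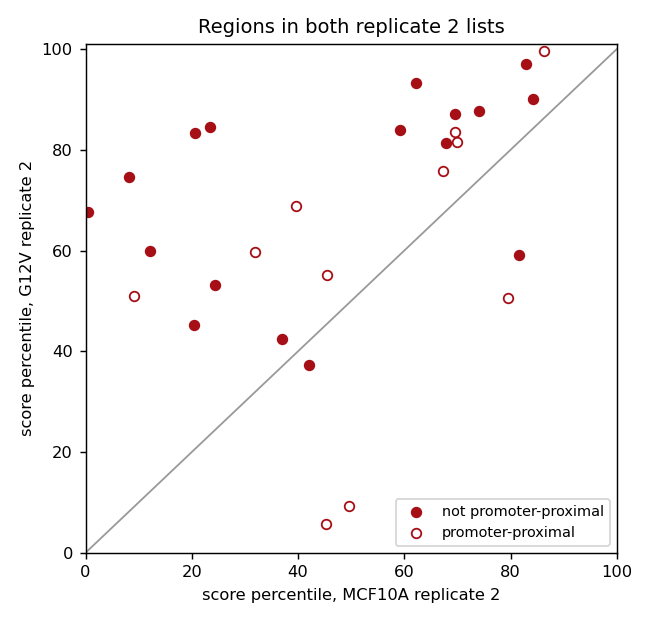
Score percentile in G12V replicate 2 (vertical axis) against MCF10A replicate 2 (horizontal axis) for the 28 regions of the complex in both lists, with filled points for regions outside promoters and a grey line where both are equal. Of the points, 23 lie above the line.

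Motifs were sought on both strands of the 150 bp windows. The AP-1, TEAD and grainyhead words had to match in full, while the CTCF and p53 family patterns were allowed mismatches. AP-1 factors, dimers of JUN and FOS proteins that respond to RAS and MAPK signalling, have long been linked to the involucrin promoter and to envelope genes. The AP-1 motif TGACTCA was in 17 of 81 windows (21.0%), against 15.9% of all 60886 regions. Away from promoters it was in 16 of 64 windows (25.0%), against 18.3%. Matches lay in the regions near CRCT1, IVL (the one at 1765 bp), SPRR1B, SPRR2E and SPRR2A. Another was in the gained region near S100A11 shown above. The remaining windows with a match were nearest to THEM4, S100A10, RPTN, HRNR, CRNN, LCE5A, KPRP, SPRR5, SPRR2D, S100A8 and S100A6. AP-1 matches were in 8 of the 40 regions with a peak only in G12V (20.0%, against 15.8% of such regions in the genome). They were also in 2 of the 11 with a peak only in MCF10A (18.2%, against 15.1%). The TEAD motif GGAATG was in 11 of 81 windows (13.6%, against 11.0%). The grainyhead motifs AACCGGTT or AACCTGTT and the p53 family motif were in 0 of 81, against 0.429% and 1.26% of all regions.

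The motif of CTCF, a factor that shapes chromatin loops, was in 10 of 81 windows (12.3%), against 6.58% of all regions. Of the gained regions, 2 of 5 held it, those near CRNN and SMCP printed above, with 2 matches in the former. It was in 8 of the 40 regions with a peak only in G12V (20.0%), against 7.7% of such regions in the genome, and in 0 of the 11 with a peak only in MCF10A, against 4.81%. A match describes the letters only.

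Most genes of the differentiation programme outside the complex also had no promoter peak. Those named were chosen after their values had been seen. Of 27 such genes, 0 were gained and 0 lost, and 18 had no promoter peak in any library, against 50.3% of all genes. The 5 genes of desquamation and processing (CASP14, CDSN, SPINK5, KLK5 and KLK7) and the 5 keratin and adhesion genes (KRT1, KRT10, KRT2, DSG1 and DSC1) were all among the 18, though SPINK5 had a peak in 3 libraries at another transcript start. So were the cross-linking and envelope genes except TGM5, a transglutaminase, and CSTA, a protease inhibitor of the envelope, each with a weak peak in MCF10A replicate 2 alone (percentiles 16.6 and 20.6). With the start of any transcript, TGM5 had a peak in both MCF10A libraries and G12V replicate 2, and PPL, a plakin of the envelope, in MCF10A replicate 1. Among the regulators, KLF4, which acts in barrier formation, was at percentiles 43.7 in MCF10A replicate 2, 50.1 in G12V replicate 1 and 77.2 in G12V replicate 2, with no peak in MCF10A replicate 1. GRHL2, GRHL3, ZNF750 and OVOL1 had none at the 5′ end of the gene, and GRHL2 had one in 3 libraries at another transcript start.

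The promoters of cell type markers said little about the identity of the cells. Of 7 promoters of basal epithelial markers, 3 had a peak in at least 1 library, against 49.7% of all protein-coding promoters. They were KRT17 in MCF10A replicate 1, ITGB4 in both MCF10A libraries and no G12V library, and LAMB3 in all but G12V replicate 1. The ITGB4 promoter was thus lost, as were 0.517% of all promoters. The KRT5, KRT14, TP63 and CDH1 promoters had no peak in any library, also when the start of any transcript was used. The promoters of PTPRC, CD3E, CDH5 and DCN, markers of leukocytes, endothelium and fibroblasts, had none at the 5′ end of the gene. PTPRC had a peak in G12V replicate 2 at another transcript start. PECAM1 was not matched in the annotation.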

How the data were processed

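ATAC-seq peak lists of 2 replicates of MCF10A and 2 of G12V cells were analysed. According to its methods and labels, the authors used bowtie (0.12.9) and hg19, kept uniquely placed reads, moved read starts to the centre of the Tn5 binding event and ran MACS (1.4.2; tag size 51, no model, shift size 75, local window 25000 bp, p threshold 1e-04). The study pooled replicates for its own analysis, whereas the deposited lists are per library. Each deposited peak has a score, 10 times the negative log10 of its p-value, with a minimum of 40, and no read count. Scores were ranked within a list.

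The 22 autosomes and X were used (14 to 25 peaks on Y were left out), and peaks were merged when they overlapped by at least 1 bp. GENCODE release 44 mapped to GRCh37 gave gene starts, where the study used RefSeq. Of all peaks, 0 ended past a GRCh37 chromosome end. Library values were compared by exact two-sided permutation tests, and region and gene counts were set beside the genome without a test. Replicates are taken as the study's 2 biological replicates. The members and gene lists were chosen with earlier results of these data known. Genes were named if listed as markers of the complex or if their promoter had a peak, and regions if gained, lost or shared. Exceptions are stated. One result of the programme list is not reported here. The alternatives tried were the top 50% of each list by score, equal list sizes, leaving out each library, an overlap of 50% of the shorter peak, merging within 200 bp, a peak in either library, other start sites and promoter windows, narrower bounds and a block by replicate number. The region, class and promoter steps were tested on simulated data. Python 3.11.15, numpy 2.4.6, scipy 1.17.1, pandas 2.3.3 and matplotlib 3.10.9 were used.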

Additional observations from a re-analysis of the deposited data

How the results depend on the processing

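Read depth is unknown, and the short replicate 1 lists limit each comparison. The share of peaks in the interval was higher in G12V in every alternative run, from 0.0266 percentage points (without MCF10A replicate 1) to 0.0728 (without MCF10A replicate 2) when a library was left out. The difference in peak number ranged from -5.5 (without G12V replicate 2) to 45.5 (without G12V replicate 1), and was 4.5 without MCF10A replicate 1. The differences in promoter-proximal peaks and in member promoters both ranged from -4.0 (without G12V replicate 2) to 9.0 (without G12V replicate 1), were both -1.5 without MCF10A replicate 1, and at equal list sizes were -1.0 and -0.5, so neither had a stable direction.

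Class counts moved with the number of lists that had to match, by construction. Leaving out a library gave 5 to 39 gained regions (39 without G12V replicate 1, 16 without MCF10A replicate 2) and 1 to 11 lost regions (11 without MCF10A replicate 1, 3 without G12V replicate 2). It gave 0 to 6 gained member promoters (6 without G12V replicate 1, 2 without MCF10A replicate 2), 0 to 2 lost ones (2 without G12V replicate 2, 1 without MCF10A replicate 1) and 1 to 3 always open ones (3 without MCF10A replicate 1 and without G12V replicate 1). Of the regions in all remaining lists, 0 to 5 ranked higher in G12V (5 without G12V replicate 1, 3 without MCF10A replicate 1, 1 without MCF10A replicate 2) and 0 to 1 ranked lower (1 without MCF10A replicate 1 and without G12V replicate 2). With a peak in either library there were 40 gained and 11 lost regions and 6 gained and 1 lost member promoters. The better-scoring 50% of each list left 2 gained and 0 lost regions and 0 always open member promoters, and 11 of 13 regions in both replicate 2 lists ranked higher in G12V. Equal list sizes left 3 gained and 0 lost regions, 1 shared region ranking higher in G12V, and 9 of 9 in the replicate 2 comparison. Any transcript start, or a window of 2000 bp on each side, gave 2 always open member promoters. Merging rules and narrower bounds left the gained and lost counts at 5 and 1.

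The replicate number was a shared number only, since 2 pairs cannot show a pairing and the deviations of same-numbered libraries correlated at -0.113 over 60886 regions. With the replicate block, the differences in peaks and share stayed at 20 and 0.0497 percentage points (exact permutation within replicate numbers, p = 0.5, the smallest possible). Within the block, with only that pair merged, replicate 1 gave 17 gained and 7 lost regions, 2 and 2 member promoters, and 1 and 1 regions in both lists ranking higher and lower in G12V. Replicate 2 gave 41 and 11, 6 and 1, and 23 and 5. A crossed replicate block, chosen after seeing the data, gave 63 gained and 1 lost regions with the short MCF10A list and 6 and 27 with the long one.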

Other observations

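Regions with a CTCF match were spread over the whole complex and lay near HRNR, CRNN (2 regions), SMCP (2 regions), PRR9, LORICRIN, S100A9, S100A16 and CHTOP. All 10 had a peak in at least 1 G12V library, and 8 of them had none in MCF10A. Over the genome, 1919 of 4005 regions with a match had a peak in G12V and none in MCF10A. Most of the 8 were in G12V replicate 2 alone, the longest list. Only the gained ones near CRNN and SMCP were in both G12V lists. The pair near SMCP lay 8108 and 6365 bp from its TSS, the former in G12V replicate 2 alone and the latter gained. These regions were picked out after the motif counts had been seen, and no test was made.

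Peaks of the interval were wider in the long lists. Their median width was 336 and 589 bp in MCF10A replicates 1 and 2, and 383 and 652.5 bp in G12V replicates 1 and 2, where all peaks of the same libraries had medians of 412, 524, 420 and 551 bp. They covered 3.74, 28.3, 7.63 and 51.4 kb in the same order.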
